A study of Mus musculus with 24 samples.

Results

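The genes described here are 43 mouse genes of the sarcomere and the mature muscle fibre, listed by symbol and found, all 43, among the 53392 genes of the quantification files. They code for the actin thin filament and its length regulators (10 genes), the myosin light chains, myosin binding proteins and M-band (11), titin, the Z-disc and its desmin and filamin C attachments (11), assembly, chaperone and turnover factors (7), and energy, oxygen and calcium handling (4). Bulk poly(A) RNA-seq of muscle stem cells (MuSCs) and their descendants was carried out in 8 groups of 3 libraries, *mdx* and WT in each of 4 states. Activated MuSCs (AMuSCs) were sorted from hindlimb muscle 3 days after injection of 10 µM cardiotoxin, a snake toxin that destroys myofibres, and freshly isolated MuSCs (FiMuSCs) were sorted from uninjured muscle. Myotubes were fused from cultured cells over 2 days of differentiation in low-mitogen horse serum medium, and myoblasts were collected while growing in serum and bFGF.

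All mice carried Pax7-nGFP, a transgene that puts green fluorescent protein into the nuclei of cells in which *Pax7* is active. The *mdx* mice were C57BL/10ScSn-Dmdmdx/J, in which a premature stop codon removes full-length dystrophin, and the WT mice were C57BL/10ScSnJ. The age of the mice is not given in the sources used here. MuSCs were sorted as GFP+ ITGA7+ cells without CD31, CD45, SCA1 or CD11b. Myoblasts were isolated on magnetic columns from the same genotypes and grown on collagen, and each myotube library is RNA of a whole culture. The RNA kit was not the same for sorted and cultured cells (Arcturus PicoPure and Nucleospin RNA II). Kit and cell source therefore cannot be told apart, and no test was made between sorted and cultured libraries.

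The sarcomere is the contractile unit of striated muscle. Actin thin filaments, covered by tropomyosin and capped by tropomodulin and leiomodin, slide past myosin thick filaments, while titin spans each side from the Z-disc, which alpha-actinin cross-links, to the M-band. MuSCs are mononucleated cells that lie beneath the basal lamina of a fibre and hold no sarcomeres. After injury they activate, divide, commit to myogenesis under MYOD1 and myogenin, and fuse into myotubes, in which genes of the contractile apparatus are switched on with embryonic and cardiac forms such as *Actc1* and *Myl4* ahead of the adult ones. Dystrophin links cortical actin of the fibre to the extracellular matrix.

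Library totals ranged from 37280196 to 64429222 expected counts. *Dmd* itself, a check of the labels of FiMuSCs and myotubes, was at 139 to 150 CPM (counts scaled to a common library size of 1e6) in *mdx* FiMuSCs, against 230 to 262 CPM in WT FiMuSCs, and at 38.1 to 47.2 CPM in *mdx* myotubes, against 205 to 230 CPM in WT myotubes. It is no check of the other labels, since the genotypes overlapped there. *Dmd* was at 16.45 to 34.4 CPM in *mdx* and 15.4 to 20.8 CPM in WT AMuSCs. In myoblasts it was at 2.39 to 29.1 CPM in *mdx* and 4.79 to 13.8 CPM in WT. The summed level of 6 MuSC markers was 5178 to 5592 CPM in *mdx* FiMuSCs and 5987 to 6086 CPM in WT FiMuSCs, and 2037 to 2592 CPM in *mdx* AMuSCs and 1159 to 1243 CPM in WT AMuSCs. Some libraries stood apart. WT AMuSC 2, *mdx* myoblast 2 and WT myoblast 2 had the highest *Myog*, *Myh3* and sarcomere gene levels of their groups, with *Myh3*, the embryonic myosin heavy chain, at 336, 342 and 928 CPM. *mdx* myoblast 2 also had the MuSC marker *Chodl* at 167 CPM, against 0.95 and 6.06 CPM in the other *mdx* myoblasts. Its summed macrophage and leukocyte level was 146 CPM, against 2.84 and 4.60 CPM, and its summed erythroid level 36.5 CPM, against 0.15 and 2.50 CPM. *mdx* AMuSC 1 had a summed macrophage and leukocyte level of 3555 CPM, against 119 to 244 CPM in the other *mdx* AMuSC libraries, and *mdx* myotube 1 had the lowest *Myl1*, *Myoz1* and *Pvalb* of the myotubes. Calls that WT AMuSC 2 changed are given with and without it.

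The 43 genes took a small share of the transcriptome before fusion and a large one after it. Over transcripts of at least 500 bases they held 0.338% ± 0.067 of all TPM (a level corrected for transcript length and summing to 1e6 per library) in *mdx* AMuSCs and 0.346% ± 0.1 in WT AMuSCs, and 0.253% ± 0.007 in *mdx* FiMuSCs and 0.229% ± 0.02 in WT FiMuSCs (SD, n = 3 each). In culture they held 6.92% ± 0.556 in *mdx* myotubes and 7.68% ± 0.274 in WT myotubes, and 0.483% ± 0.131 in *mdx* myoblasts and 0.604% ± 0.198 in WT myoblasts. Myotube and myoblast libraries did not overlap, whereas *mdx* and WT libraries overlapped in FiMuSCs, AMuSCs and myoblasts. The overlap in FiMuSCs depended on the cut at 500 bases. Over all transcripts the genes held 0.173% to 0.200% of TPM in *mdx* FiMuSCs and 0.125% to 0.140% in WT FiMuSCs. Of all expected counts they held 0.301% to 0.320% in *mdx* FiMuSCs and 0.242% to 0.280% in WT FiMuSCs. Of the 43 genes, 40 had their highest mean level in myotubes in each genotype. *Tpm3*, a tropomyosin with both cytoskeletal and slow muscle products, was highest in myoblasts in both genotypes, and *Myl3*, the slow ventricular essential light chain, was highest in FiMuSCs in both. The remaining exception was *Pvalb* in *mdx* cells and *Myl2* in WT cells, each highest in FiMuSCs.

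**Figure D1:**
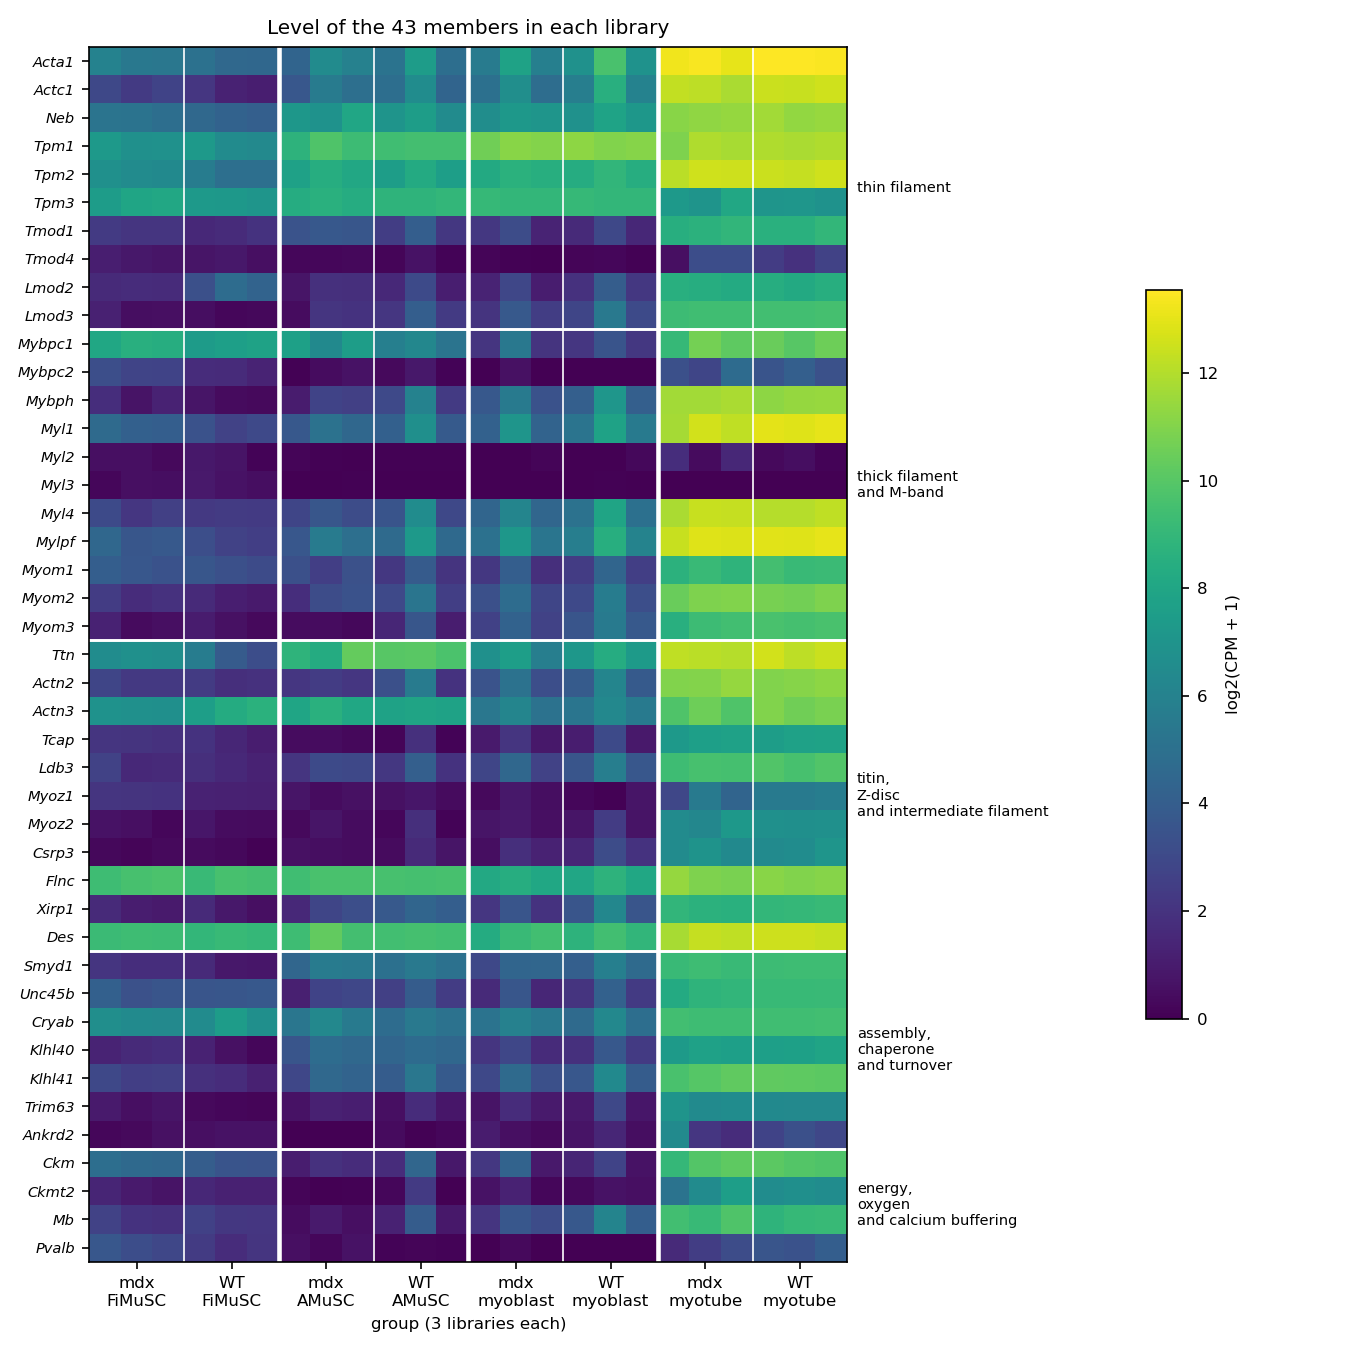
Level of each of the 43 genes (rows, grouped by role) in each of the 24 libraries (columns, 3 per group), as log2(CPM + 1) with CPM scaled over all 24 libraries. Myotube columns are the brightest for nearly every gene, the exceptions being *Tpm3*, *Myl3*, *Pvalb* in *mdx* and *Myl2* in WT, and the second WT AMuSC, *mdx* myoblast and WT myoblast columns are brighter than their neighbours.

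A minority of the genes was well expressed in every state. *Des*, the muscle intermediate filament, *Flnc*, an actin cross-linker at the Z-disc, and *Tpm3* were at 100 CPM or more in all 24 libraries. *Flnc* was at 664, 805 and 805 CPM in *mdx* AMuSCs and 782, 760 and 784 CPM in WT AMuSCs, close to its FiMuSC levels of 641, 775 and 843 CPM in *mdx* and 581, 774 and 721 CPM in WT. In FiMuSCs, *Mybpc1*, the slow-type myosin binding protein C, and *Actn3*, the fast-fibre alpha-actinin, were also at 100 CPM or more in every library. Other members were near the limit of detection before fusion, with 13 genes under 1 CPM in all *mdx* AMuSC libraries and 7 in all WT AMuSC libraries, and 6 in all *mdx* FiMuSC libraries and 9 in all WT FiMuSC libraries. In myotubes, 14 genes reached 1000 CPM in every *mdx* library and 17 in every WT library.

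Per unit of length, the leading genes also differed by state. Over transcripts of at least 500 bases, the light chains and actins led in myotubes. *Myl4*, the embryonic and atrial essential light chain, averaged 4591 ± 588 TPM in *mdx* myotubes and 4047 ± 258 TPM in WT myotubes (SD, n = 3 each). *Myl1*, the fast essential light chain, averaged 4467 ± 862 TPM in *mdx* myotubes and 7186 ± 209 TPM in WT myotubes. *Myl1* led in WT, while *Myl4* and *Myl1* could not be ordered in *mdx*. *Acta1*, the adult skeletal actin, averaged 3861 ± 640 TPM in *mdx* and 4428 ± 222 TPM in WT myotubes, and *Actc1*, the cardiac actin, averaged 1744 ± 428 TPM in *mdx* and 2098 ± 44.7 TPM in WT myotubes. In myoblasts *Tpm1* led, at 1144 ± 236 TPM in *mdx* and 1224 ± 102 TPM in WT, and in FiMuSCs *Des* led in *mdx* at 272 ± 12.3 TPM, while *Cryab* at 235 ± 87.7 TPM and *Des* at 229 ± 9.81 TPM could not be ordered in WT. The full TPM table ranks *Mylpf*, the fast regulatory light chain, far higher, because 1 annotated *Mylpf* transcript of 165 bases, with an effective length of 6 bases, carried 44.0% of the gene's TPM from 6.8% of its counts in *mdx* myotubes and 45.1% from 7.2% in WT myotubes. For that reason levels are compared between genes only over transcripts of at least 500 bases, a choice made after the values were seen. The cut also takes much from the tropomyosins *Tpm2* and *Tpm3*. Over all transcripts *Tpm2* was at 6786 to 8004 TPM in *mdx* and 7119 to 7775 TPM in WT myotubes. After the cut its means were 1083 and 1048 TPM. *Tpm3* led in FiMuSCs over all transcripts, at 315 to 470 TPM in *mdx* and 238 to 259 TPM in WT. After the cut its means there were 107 and 66.9 TPM. The order of the leading genes therefore depends on the cut.

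Promoter sequences are shown for the actins, *Mylpf*, *Klhl41*, *Lmod2* and *Tpm3*, since these genes carry the changes described next and include the member that moved against the others. Promoters of 35 of the 43 genes were found by symbol in RefSeq (build GRCm38.p6), and the 250 bases before each start were read. Each is written 5′ to 3′ on the coding strand, with capitals for CANNTG (the E-box, which MYOD1 and myogenin bind), the CArG box (bound by SRF) and the MEF2 box, searched on both strands.
*Acta1* (chr8:123894776-123895025, minus strand): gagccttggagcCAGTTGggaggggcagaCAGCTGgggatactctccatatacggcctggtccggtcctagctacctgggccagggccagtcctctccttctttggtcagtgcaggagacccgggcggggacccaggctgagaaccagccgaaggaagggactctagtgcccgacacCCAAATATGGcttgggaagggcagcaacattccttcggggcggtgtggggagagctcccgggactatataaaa
*Actc1* (chr2:114052876-114053125, minus strand): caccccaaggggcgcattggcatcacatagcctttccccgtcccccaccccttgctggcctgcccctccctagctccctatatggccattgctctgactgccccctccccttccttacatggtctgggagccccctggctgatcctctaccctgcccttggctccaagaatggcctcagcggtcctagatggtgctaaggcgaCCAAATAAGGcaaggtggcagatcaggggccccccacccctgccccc
*Mylpf* (chr7:127211358-127211607, plus strand): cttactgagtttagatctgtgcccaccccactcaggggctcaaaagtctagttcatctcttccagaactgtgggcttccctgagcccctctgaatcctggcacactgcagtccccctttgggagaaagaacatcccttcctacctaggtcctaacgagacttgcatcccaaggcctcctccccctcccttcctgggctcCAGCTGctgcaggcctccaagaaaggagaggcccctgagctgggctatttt
*Klhl41* (chr2:69669870-69670119, plus strand): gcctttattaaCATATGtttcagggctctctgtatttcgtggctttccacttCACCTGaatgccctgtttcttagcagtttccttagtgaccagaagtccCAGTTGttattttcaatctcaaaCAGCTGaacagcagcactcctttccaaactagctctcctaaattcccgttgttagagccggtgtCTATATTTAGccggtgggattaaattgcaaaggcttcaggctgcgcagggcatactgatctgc
*Lmod2* (chr6:24597521-24597770, plus strand): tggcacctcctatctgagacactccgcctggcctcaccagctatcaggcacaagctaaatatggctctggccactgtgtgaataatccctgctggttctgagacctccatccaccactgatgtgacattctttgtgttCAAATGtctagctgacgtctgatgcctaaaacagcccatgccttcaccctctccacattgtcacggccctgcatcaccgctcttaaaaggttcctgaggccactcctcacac
*Tpm3*, first start (chr3:90072401-90072650, plus strand): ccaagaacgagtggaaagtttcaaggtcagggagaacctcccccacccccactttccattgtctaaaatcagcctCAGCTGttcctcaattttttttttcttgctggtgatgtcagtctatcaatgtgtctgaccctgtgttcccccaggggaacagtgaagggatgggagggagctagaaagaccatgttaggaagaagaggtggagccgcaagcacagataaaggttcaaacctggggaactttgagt
*Tpm3*, second start (chr3:90079271-90079520, plus strand): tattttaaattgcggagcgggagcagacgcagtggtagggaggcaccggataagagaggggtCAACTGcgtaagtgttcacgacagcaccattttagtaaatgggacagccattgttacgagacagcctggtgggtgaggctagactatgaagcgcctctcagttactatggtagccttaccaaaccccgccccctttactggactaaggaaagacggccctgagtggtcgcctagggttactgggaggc

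CANNTG was present before at least 1 start of 29 of the 35 genes (82.9%) and of 69.3% of all 27025 genes in the table. CAGCTG, a form of the same E-box and so counted within it, was present in 16 of 35 (45.7%) and in 14.7% of all genes. The CArG box was found in *Acta1*, *Actc1*, *Myl3*, *Myom1* and *Ldb3* (5 of 35, 14.3%, and 1.6% of all genes). The MEF2 box was found in *Myom3*, *Ttn*, *Myoz2*, *Klhl41* and *Pvalb* (14.3%, and 3.4% of all genes), and CATTCC, the core bound by TEAD factors, in 9 of 35 (25.7%, and 14.4% of all genes). *Actc1* has a CArG box and no CANNTG in this window, *Lmod2* and the second *Tpm3* start have 1 CANNTG each and no CAGCTG, and *Klhl41* has 4 CANNTG and a MEF2 box. A match describes letters in a window and is not a measured binding site.

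Differentiation of cultured cells switched on almost the whole list. Between *mdx* myotubes and *mdx* myoblasts, 40 of the 42 genes tested rose and 1 fell at an adjusted p under 0.05 (edgeR quasi-likelihood test, Benjamini-Hochberg adjustment over all genes, as throughout), against 25.8% of all 17206 genes called higher and 26.5% called lower. Between WT myotubes and WT myoblasts, 40 of 42 rose and 1 fell, against 34.9% and 34.5% of 16907 genes. The median log2 fold change of the members was 6.15 in *mdx* (all genes −0.07) and 5.13 in WT (all genes −0.02), and 39 genes rose in both genotypes. In bulk samples, a larger share of differentiated cells and more RNA per differentiated cell cannot be told apart. All 11 Z-disc and titin genes and all 7 assembly, chaperone and turnover genes rose in both genotypes.

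*Acta1* was at 9786, 11000 and 8295 CPM in *mdx* myotubes, against 48.7, 224 and 55.6 CPM in *mdx* myoblasts, a log2 fold change of 6.50 ± 0.76 (SE, adjusted p = 0.00075). In WT it was at 11920, 11880 and 11360 CPM in myotubes, against 114, 802 and 117 CPM in myoblasts (5.09 ± 1.05, adjusted p = 0.0091). The highest myoblast library of each genotype, the second, was still more than 10 times below the lowest myotube library. *Actc1* rose by 6.41 ± 0.66 in *mdx* and 5.14 ± 1.01 in WT on the log2 scale, *Myl4* by 7.01 ± 0.68 and 5.43 ± 1.12, and *Ttn*, the giant elastic protein, by 5.27 ± 0.50 and 4.71 ± 0.42. *Ckm*, muscle creatine kinase, was at 519, 955 and 1170 CPM in *mdx* myotubes, against 3.52, 18.8 and 0.91 CPM in *mdx* myoblasts (6.85 ± 1.20). It was at 1125, 976 and 906 CPM in WT myotubes, against 1.60, 5.61 and 0.58 CPM in WT myoblasts (8.60 ± 1.00). *Des*, which was already expressed in myoblasts, rose less, by 3.12 ± 0.33 in *mdx* and 3.42 ± 0.20 in WT.

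**Figure D2:**
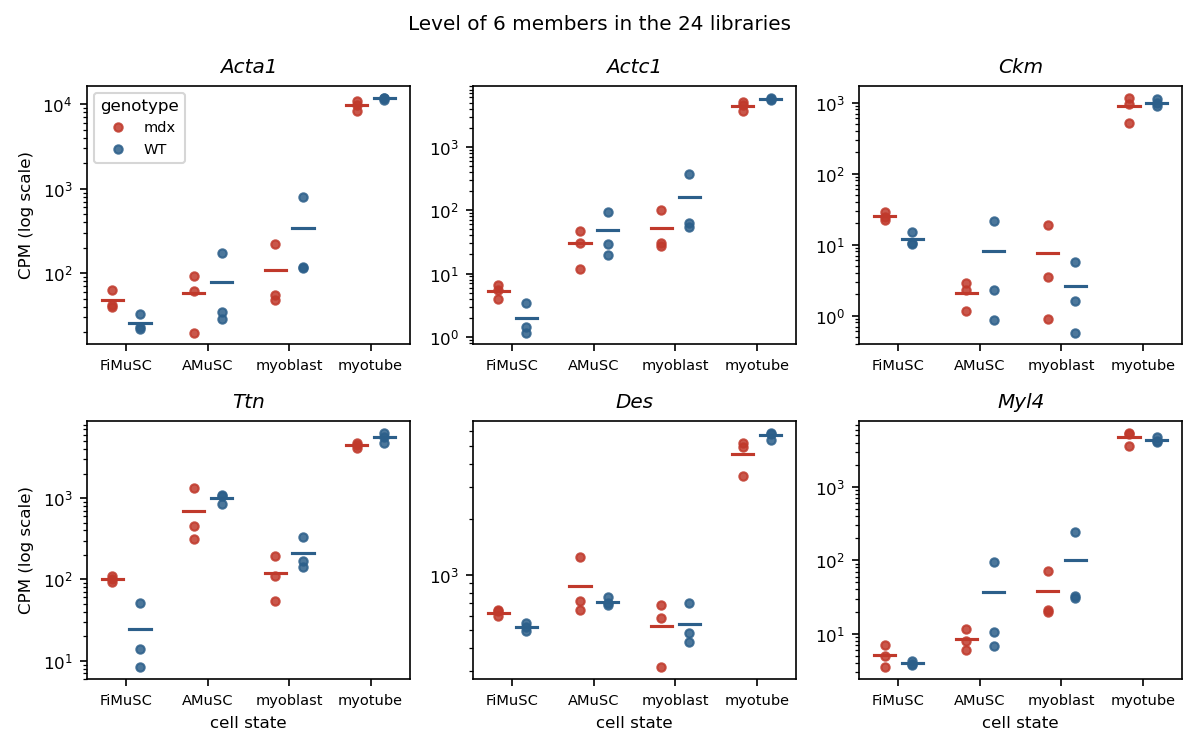
CPM (log scale) of *Acta1*, *Actc1*, *Ckm*, *Ttn*, *Des* and *Myl4* in the 4 cell states, with *mdx* libraries in red at the left of WT libraries in blue, 1 point per library and a line at each mean of 3. Myotube points stand above those of every other state for all 6 genes, and *Ttn* alone has AMuSC points above the myoblast points in both genotypes.

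The other genes with large increases spanned every part of the sarcomere. In *mdx* they included *Mybph* (7.26), *Myoz2* (7.24), *Ckmt2* (7.14), *Actn2* (7.06), *Myom2* (7.03), *Lmod2* (6.86) and *Tcap* (6.87), the titin cap, and in WT *Ckmt2* (7.87), the mitochondrial creatine kinase, *Mybpc1* (7.80), *Myoz1* (7.20), the fast-fibre calsarcin, *Tmod1* (6.93) and *Myom2* (6.35). For *Mybpc2*, the fast myosin binding protein C, WT myotubes held 1127 counts in all and WT myoblasts none, which gives a level at least 665-fold higher, with 3 counts over the group as the floor. For *Pvalb*, the calcium buffer of fast fibres, WT myotubes held 1143 counts and WT myoblasts 1, a ratio of 2022 with a 95% counting interval of 362 to 79930, yet *Pvalb* reached only 9.57 to 15.3 CPM in WT myotubes and 2.08 to 7.95 CPM in *mdx* myotubes. *Myl2*, the slow and ventricular regulatory light chain, passed the test in *mdx* and not in WT (the difference did not pass), with 2.46, 0.33 and 1.89 CPM in *mdx* myotubes and 0.29, 0.44 and 0.09 CPM in WT myotubes. *Tpm1* was at 1929, 3894 and 3491 CPM in *mdx* myotubes, against 1542, 2264 and 2106 CPM in *mdx* myoblasts, and did not pass the test, while in WT it did, with 3846, 3557 and 3833 CPM in myotubes, against 2440, 2033 and 2161 CPM in myoblasts. *Myl3* had no count in any myotube library and was not tested.

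*Tpm3* was the member that fell. It was at 160, 129 and 277 CPM in *mdx* myotubes, against 531, 492 and 494 CPM in *mdx* myoblasts (log2 fold change −1.40 ± 0.28, adjusted p = 0.006). In WT it was at 133, 136 and 120 CPM in myotubes, against 532, 506 and 495 CPM in myoblasts (−1.97 ± 0.07, adjusted p = 2.8e-07). The spread of *mdx* myotubes was the wider, with the third library at 277 CPM.

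The annotated transcripts of 3 members changed places on differentiation, as a description of the deposited estimates with no test. *Tpm1*-205 (1208 bases) held 57.8% of *Tpm1* TPM in *mdx* myotubes and 59.0% in WT myotubes, against 12.9% in *mdx* myoblasts and 16.5% in WT myoblasts. *Tpm1*-211 (1607 bases) went the other way, at 2.04% in *mdx* myotubes and 0.66% in WT myotubes, against 26.6% in *mdx* and 22.7% in WT myoblasts, and it was the leading *Tpm1* transcript of FiMuSCs (41.9% in *mdx*, 50.6% in WT). *Flnc* was mostly *Flnc*-202 (8939 bases) in myotubes, at 84.2% in *mdx* and 84.7% in WT, against 13.5% in *mdx* and 24.6% in WT myoblasts. *Flnc*-201 (9038 bases) made up most of the rest in myotubes and was the main transcript in FiMuSCs (82.1% in *mdx*, 80.6% in WT), AMuSCs (88.6% and 84.1%) and myoblasts (86.3% and 75.3%). *Tpm3*-201 (2230 bases) was at 0.386 TPM in *mdx* myotubes and 0.029 TPM in WT myotubes, against 125 TPM in *mdx* and 111 TPM in WT myoblasts. Salmon assigns reads shared between transcripts by estimation, so each share is an estimate.

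**Figure D3:**
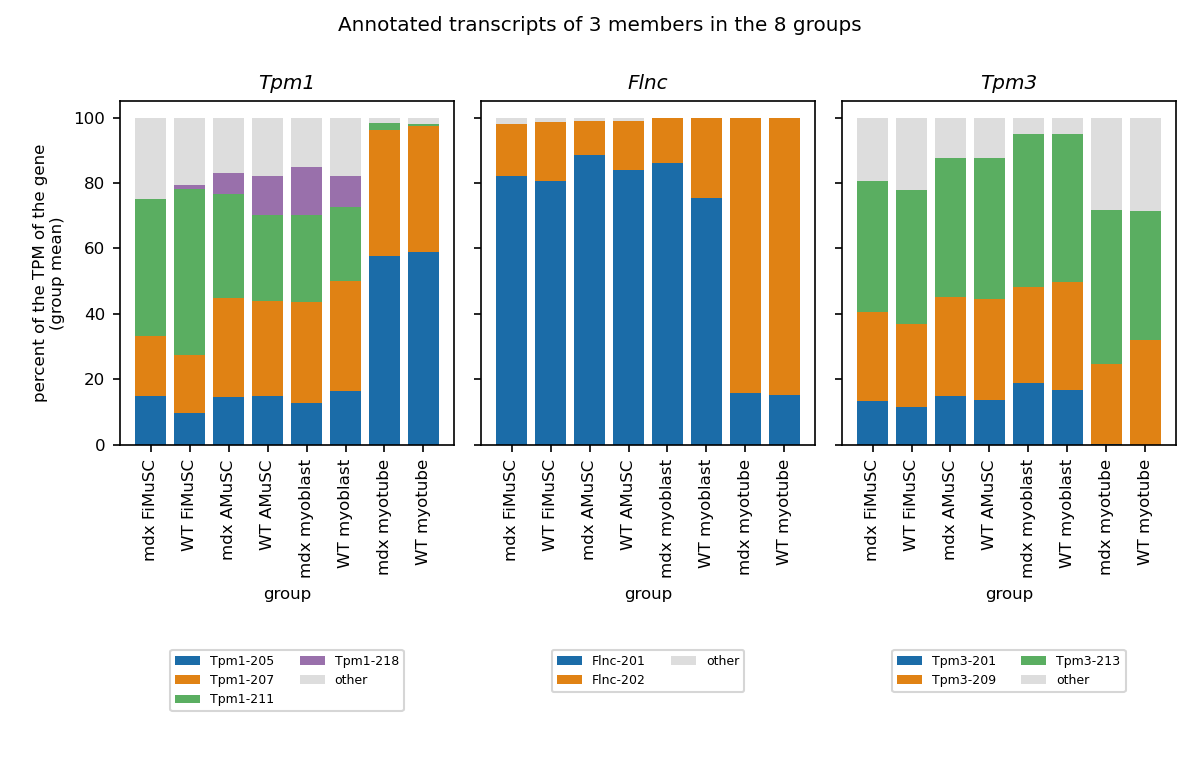
Share of each gene's TPM (percent, mean of 3 libraries) in the annotated transcripts of *Tpm1*, *Flnc* and *Tpm3* that held at least 10% in some group, with the remainder in grey, in the 8 groups. *Tpm1*-205 and *Flnc*-202 take most of the bar in the myotube groups and a minority in the other 6 groups, and *Tpm3*-201 is nearly absent from myotubes.

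The injury response raised many of the same genes to levels far below those of myotubes. Between *mdx* AMuSCs and *mdx* FiMuSCs, 11 of 43 genes tested rose and 11 fell, against 15.5% of 19650 genes called higher and 11.7% called lower. Between WT AMuSCs and WT FiMuSCs, 22 of 42 rose and 7 fell, against 31.6% and 33% of 19359 genes. The median log2 fold change was 0.29 in *mdx* (all genes −0.02) and 1.79 in WT (all genes −0.08). Of the genes that rose, 10 were shared, which is 10 of the 11 of *mdx* and 10 of the 22 of WT: *Actc1*, *Neb*, *Tpm1*, *Tpm2*, *Tmod1*, *Ttn*, *Xirp1*, *Smyd1*, *Klhl40* and *Klhl41*. Of the genes that fell, 5 were shared (*Mybpc1*, *Mybpc2*, *Myl3*, *Myoz1* and *Pvalb*), which is 5 of the 11 of *mdx* and 5 of the 7 of WT.

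*Ttn* was at 451, 316 and 1316 CPM in *mdx* AMuSCs, against 93.5, 109 and 102 CPM in *mdx* FiMuSCs (log2 fold change 2.78 ± 0.56, adjusted p = 0.015), the third AMuSC library being the highest. In WT it was at 1057, 1076 and 844 CPM in AMuSCs, against 51.4, 14.0 and 8.31 CPM in FiMuSCs (5.43 ± 0.77, adjusted p = 0.001). *Smyd1*, a methyltransferase needed for myosin assembly in zebrafish and mouse, was at 21.02, 48.2 and 43.1 CPM in *mdx* AMuSCs, against 3.33, 2.46 and 2.43 CPM in *mdx* FiMuSCs (3.77 ± 0.36, adjusted p = 0.00057). In WT it was at 30.7, 44.2 and 31.9 CPM in AMuSCs, against 2.06, 0.84 and 0.75 CPM in FiMuSCs (4.97 ± 0.42, adjusted p = 7.8e-05). *Klhl40*, a kelch protein that stabilises leiomodin-3 and nebulin, rose by 3.35 ± 0.39 in *mdx* and 5.08 ± 0.63 in WT. The thin filament genes *Actc1* (2.47 in *mdx*, 4.67 in WT), *Neb* (2.40 and 2.92), *Tpm1* (2.35 and 2.79) and *Tpm2* (1.52 and 2.72) rose as well, and AMuSCs and FiMuSCs did not overlap for any of them.

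Several light chain and M-band genes passed the test in WT and not in *mdx*. *Mybph* (5.94), *Lmod3* (4.80), *Mylpf* (3.53), *Myl4* (3.33), *Myom2* (3.62) and *Myom3* (3.02), all on the log2 scale, rose in WT, and none of them passed in *mdx*. Of these, only *Myom3* passed for the difference between the genotypes' responses, described with that test. These values leaned on WT AMuSC 2. *Mylpf*, for instance, was at 11.8, 48.1 and 29.3 CPM in *mdx* AMuSCs and 24.3, 154 and 23.8 CPM in WT AMuSCs, against 22.3, 11.2 and 12.7 CPM in *mdx* FiMuSCs and 8.60, 5.42 and 4.66 CPM in WT FiMuSCs. Without WT AMuSC 2, *Mylpf* rose by 2.05, *Mybph* by 3.77, *Lmod3* by 3.78, *Myom2* by 2.14 and *Myl4* by 1.22 in WT, and *Myom3* (1.33) no longer passed (adjusted p = 0.077). *Acta1* passed in neither genotype, at 0.26 ± 0.54 in *mdx* (adjusted p = 0.76) and 1.72 ± 0.73 in WT (adjusted p = 0.082), and *Des* rose in WT by 0.54 ± 0.09 and was at 0.48 ± 0.27 in *mdx* (adjusted p = 0.23).

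The 4 genes of energy supply, oxygen storage and calcium buffering all fell in *mdx*, and 1 of them, *Pvalb*, fell in WT. For the difference between the genotypes' responses 0 of the 4 passed. *Pvalb* was at 0.48, 0.16 and 0.57 CPM in *mdx* AMuSCs, against 11.8, 8.15 and 6.49 CPM in *mdx* FiMuSCs (−4.45 ± 0.54), and at 0.09, 0.12 and 0.12 CPM in WT AMuSCs, against 4.15, 2.32 and 3.21 CPM in WT FiMuSCs (−4.75 ± 0.38). *Ckm* was at 1.15, 2.87 and 2.27 CPM in *mdx* AMuSCs, against 28.4, 24.2 and 22.3 CPM in *mdx* FiMuSCs (−3.57 ± 0.36, adjusted p = 0.00065). In WT AMuSCs it was at 2.33, 21.2 and 0.85 CPM, against 15.2, 10.4 and 10.0 CPM in WT FiMuSCs (−0.46 ± 1.07, adjusted p = 0.73), and without WT AMuSC 2 the value was −2.79 (adjusted p = 0.0027). Without that library 19 genes rose and 15 fell in WT. The share of all genes called in that fit is not given, so these counts have no background beside them. *Ckmt2* (−3.86), *Mb* (−2.64), the oxygen store myoglobin, *Tcap* (−3.30), *Ankrd2* (−3.74) and *Tmod4* (−2.17) fell in *mdx*, and *Cryab* (−1.76), a small heat shock protein that protects desmin, and *Lmod2* (−2.34) fell in WT. None of these passed for the difference between the responses. WT AMuSC 2 was again the highest WT AMuSC library for *Ckmt2* (0.17, 4.02 and 0 CPM), *Mb* (1.43, 14.5 and 0.85 CPM) and *Tcap* (0.16, 2.64 and 0.12 CPM). WT FiMuSCs had 1.35 to 1.87 CPM of *Ckmt2*, 3.48 to 5.11 CPM of *Mb* and 1.09 to 2.97 CPM of *Tcap*. *Myl3* had 84 counts in WT FiMuSCs and none in WT AMuSCs, a level at least 35.2-fold lower after injury. Erythroid and endothelial markers were lower as well. The summed level of 4 erythroid markers was 44.1 to 60.4 CPM in *mdx* AMuSCs and 24.3 to 31.6 CPM in WT AMuSCs, against 286 to 538 CPM in *mdx* FiMuSCs and 150 to 565 CPM in WT FiMuSCs. The summed endothelial level was 26.3 to 47.7 CPM in *mdx* AMuSCs and 18.7 to 49.8 CPM in WT AMuSCs, against 203 to 532 CPM in *mdx* FiMuSCs and 257 to 300 CPM in WT FiMuSCs. Macrophage and leukocyte markers fell in WT (5 of 6 called lower) but not in *mdx* (0 of 6 called). Their summed level was 119 to 3555 CPM in *mdx* AMuSCs, against 334 to 1010 CPM in *mdx* FiMuSCs. In WT it was 7.45 to 22.8 CPM in AMuSCs, against 59.1 to 292 CPM in FiMuSCs. The part of all these cell types in the result was not tested.

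**Figure D4:**
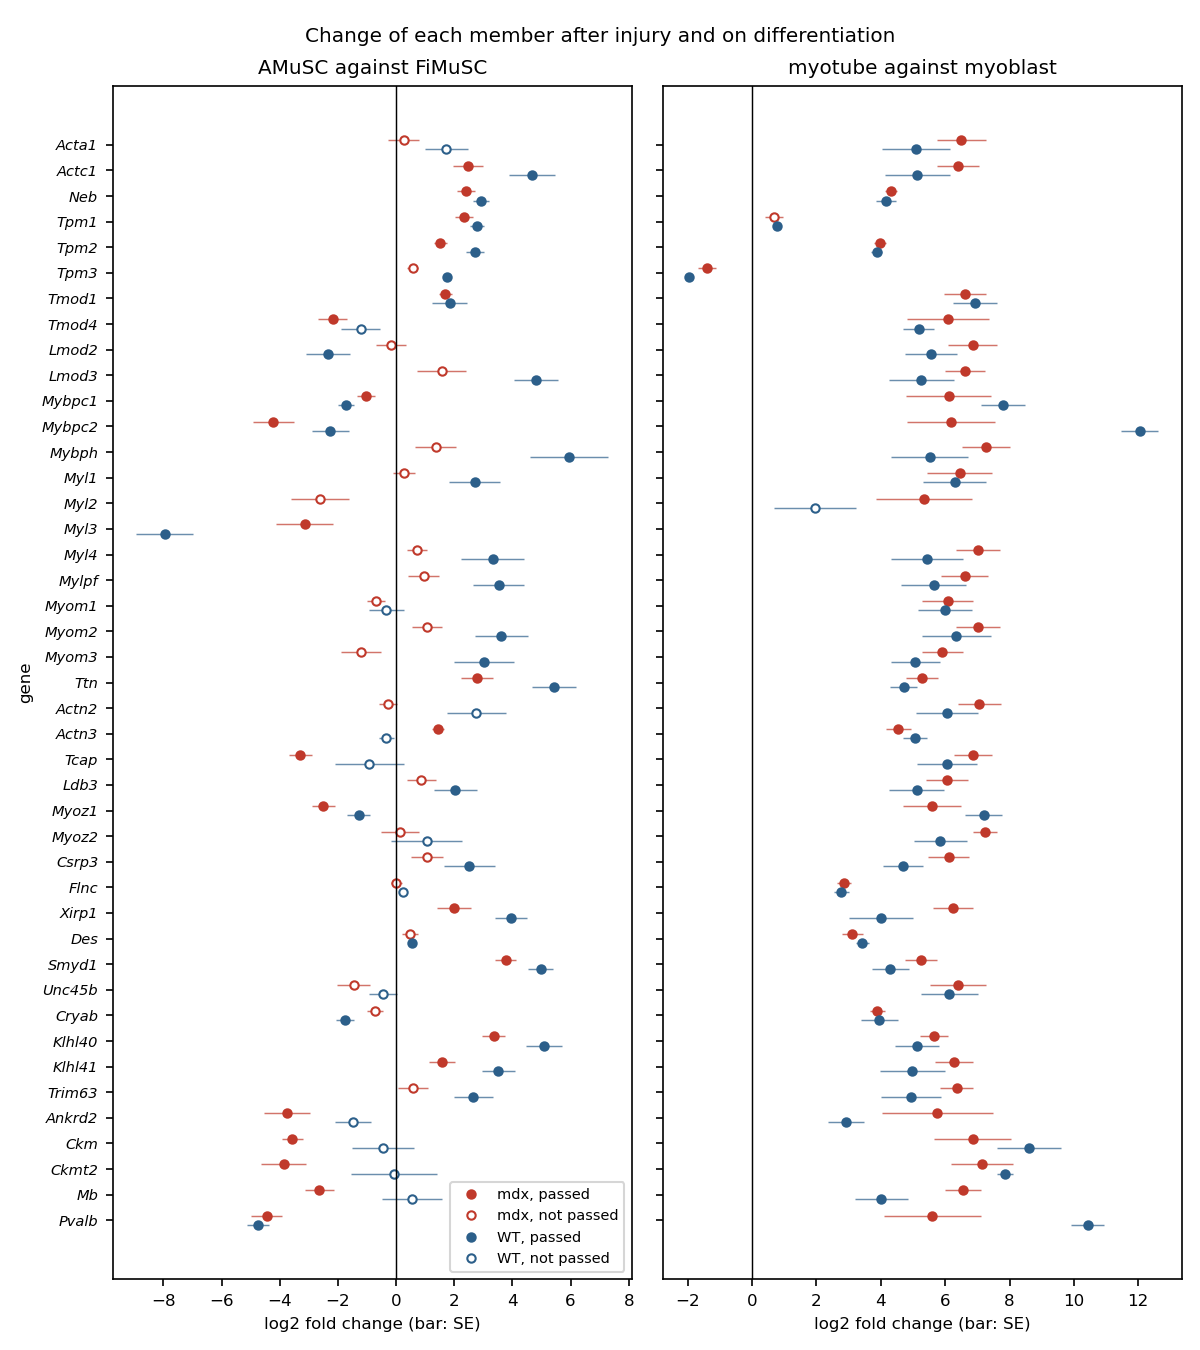
Log2 fold change (points) with its SE (bars) for each gene, AMuSC against FiMuSC at the left and myotube against myoblast at the right, with *mdx* in red above WT in blue and filled points for an adjusted p under 0.05. Nearly all points at the right lie above 2 apart from *Tpm1*, *Tpm3* and *Myl2*, and those at the left fall on both sides of 0. The WT points of *Myl3* at the left and *Mybpc2* at the right compare against groups without counts and are no bound.

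The difference between the injury responses was tested over the 12 sorted libraries. Of 43 genes, *Actn3* had a higher response in *mdx* than in WT and *Tpm2*, *Tpm3* and *Myom3* a lower one, against 8.14% of 21086 genes called higher and 6.98% called lower. The median difference was −1.48 on the log2 scale (all genes −0.03), and at an unadjusted p under 0.05 4 genes were higher and 21 lower. Among all 21086 genes, 3280 were higher and 3038 lower at that level. *Actn3* was at 248, 387 and 269 CPM in *mdx* AMuSCs, against 117, 111 and 105 CPM in *mdx* FiMuSCs. In WT it was at 225, 241 and 219 CPM in AMuSCs, against 190, 325 and 406 CPM in FiMuSCs, so the difference of 1.75 ± 0.34 (adjusted p = 0.0077) rests on a rise in *mdx* AMuSCs and a high level in WT FiMuSCs. *Tpm3* was at 332, 386 and 330 CPM in *mdx* AMuSCs, against 181, 246 and 279 CPM in *mdx* FiMuSCs. In WT it was at 443, 440 and 497 CPM in AMuSCs, against 161, 146 and 132 CPM in FiMuSCs (difference −1.21 ± 0.22, adjusted p = 0.0052). *Actn3* and *Tpm3* passed in all 20 fits tried. *Tpm2* (−1.24 ± 0.37, adjusted p = 0.044) passed in 7 and *Myom3* (−4.25 ± 1.25, adjusted p = 0.041) in 8, and without WT AMuSC 2 they were at −0.97 (adjusted p = 0.095) and −2.56 (adjusted p = 0.12). The *mdx* FiMuSC level enters this difference too, and *Ttn* (−2.68 ± 0.91, adjusted p = 0.074) and *Actc1* (−2.22 ± 0.94, adjusted p = 0.14) did not pass.

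Uninjured *mdx* muscle yielded FiMuSCs with higher levels of a part of the list. Between *mdx* and WT FiMuSCs, 11 of 43 genes were higher and 2 lower, against 5.82% of 19406 genes called higher and 3.85% called lower. The median log2 fold change was 0.66 (all genes −0.002), and 34 genes had a positive and 9 a negative value. For all 13 genes called, every *mdx* library lay on 1 side of every WT library, as it did for 22 of all 43 genes. The share of all genes so apart was not counted, so no conclusion is drawn from this. By role, 3 of 10 thin filament, 3 of 11 thick filament and M-band, 1 of 11 titin and Z-disc, 2 of 7 assembly and 2 of 4 energy and calcium genes were higher. *Trim63*, the ubiquitin ligase MuRF1, was at 0.94, 0.48 and 0.71 CPM in *mdx*, against 0.28, 0.18 and 0.13 CPM in WT (1.84 ± 0.45, adjusted p = 0.049). *Mybpc2* was at 8.41, 5.96 and 5.57 CPM in *mdx*, against 2.34, 2.12 and 1.57 CPM in WT (1.73 ± 0.26, adjusted p = 0.012). *Pvalb* (1.46 ± 0.31), *Klhl41* (1.36 ± 0.31), *Myl1* (1.35 ± 0.28) and *Myoz1* (1.17 ± 0.21) were higher as well, each under 30 CPM in every FiMuSC library.

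*Tpm2* was at 111, 92.3 and 85.5 CPM in *mdx* FiMuSCs, against 50.7, 30.1 and 30.3 CPM in WT FiMuSCs (1.39 ± 0.23, adjusted p = 0.017). *Ckm* was at 28.4, 24.2 and 22.3 CPM in *mdx*, against 15.2, 10.4 and 10.0 CPM in WT (1.08 ± 0.19, adjusted p = 0.019). *Mybpc1* was at 263, 365 and 343 CPM in *mdx*, against 172, 201 and 224 CPM in WT (0.71 ± 0.15, adjusted p = 0.036). *Neb*, the ruler of thin filament length, and *Tpm3* were higher by 0.81 ± 0.16 and 0.69 ± 0.16. *Acta1* (0.93 ± 0.24, adjusted p = 0.059), *Actc1* (1.43 ± 0.45, adjusted p = 0.1), *Ttn* (2.06 ± 0.64, adjusted p = 0.098), *Des* (0.26 ± 0.08, adjusted p = 0.1) and *Myl4* (0.40 ± 0.28, adjusted p = 0.44) did not pass. *Ttn* was at 93.5, 109 and 102 CPM in *mdx* and 51.4, 14.0 and 8.31 CPM in WT, and the WT libraries were the spread-out ones, with WT FiMuSC 1 nearest to *mdx*.

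*Lmod2* and *Actn3* were lower in *mdx* FiMuSCs. *Lmod2*, a leiomodin that nucleates and lengthens thin filaments and is known best from the heart, was at 2.08, 2.30 and 2.18 CPM in *mdx*, against 9.02, 26.7 and 18.9 CPM in WT (−3.05 ± 0.40, adjusted p = 0.0077). *Actn3* was at 117, 111 and 105 CPM in *mdx*, against 190, 325 and 406 CPM in WT (−1.46 ± 0.27, adjusted p = 0.024). For both genes the *mdx* libraries were tightly grouped and WT FiMuSC 1 was the lowest WT library. After injury *Lmod2* no longer stood apart, with 0.68, 2.63 and 2.48 CPM in *mdx* AMuSCs and 1.96, 7.11 and 1.18 CPM in WT AMuSCs, and in myotubes it was at 312 to 372 CPM in *mdx* and 301 to 356 CPM in WT.

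**Figure D5:**
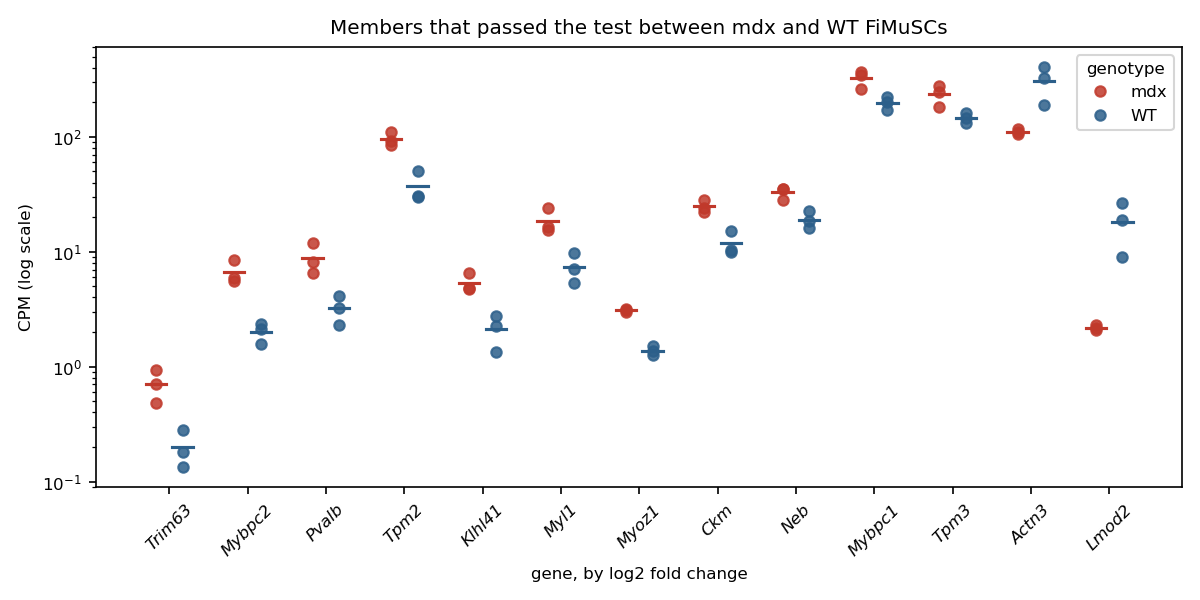
CPM (log scale) of the 13 genes with an adjusted p under 0.05 between *mdx* (red, left) and WT (blue, right) FiMuSCs, ordered by log2 fold change, with 1 point per library and a line at each mean of 3. The *mdx* points lie above the WT points for 11 genes and below them for *Actn3* and *Lmod2*, without overlap.

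Only *Lmod2* passed under all 13 fits tried, and the 13 calls became 1 when WT FiMuSC 2, WT FiMuSC 3 or *mdx* FiMuSC 2 was left out, and 5 when *mdx* FiMuSC 3 was left out or when all 24 libraries were fitted together. The summed macrophage and leukocyte level was 334 to 1010 CPM in *mdx* FiMuSCs and 59.1 to 292 CPM in WT FiMuSCs, with 3 of 6 markers called higher. That of 10 adult myofibre genes outside the list was 287 to 318 CPM in *mdx* and 297 to 557 CPM in WT. Much of that sum is *Atp2a1*, at 91.9 to 106 CPM in *mdx* and 95.25 to 344 CPM in WT. By gene the 10 went both ways, with *Cacna1s* called higher and *Pygm* lower in *mdx*, and a median log2 fold change of 0.30. The summed level of 3 differentiating myocyte markers was 27.3 to 29.7 CPM in *mdx* and 12.2 to 17.7 CPM in WT, with 1 of 3 (*Myog*) called higher. Of fibro-adipogenic markers 2 of 6 were called higher (*Pdgfra* and *Ly6a*), and of endothelial markers 1 of 5 was called lower (*Tek*). Of proliferation markers 0 of 5 were called. The part of differentiating cells, of other cells or of myofibre fragments in the differences between *mdx* and WT FiMuSCs was not tested.

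In AMuSCs, 38 of the 43 genes were tested between *mdx* and WT, none was higher and 2 were lower, against 14.8% of 19321 genes called higher and 8.95% called lower. At an unadjusted p under 0.05 1 gene was higher and 4 were lower, against 4463 higher and 2901 lower of all 19321 genes. DESeq2 called 1 higher and 5 lower. The share of all genes that DESeq2 called is not given, so that count has no background beside it. *Tpm3* was at 332, 386 and 330 CPM in *mdx*, against 443, 440 and 497 CPM in WT (−0.43 ± 0.12, adjusted p = 0.043). *Myom3*, an M-band protein of slow fibres, was at 0.35, 0.37 and 0.24 CPM in *mdx*, against 1.73, 11.2 and 1.13 CPM in WT (−3.89 ± 0.95, adjusted p = 0.028). The groups did not overlap for either gene, although *Myom3* rests on few reads. The median log2 fold change was −0.51 (all genes 0.04). *Acta1* was at 19.9, 91.9 and 61.4 CPM in *mdx*, against 34.5, 175 and 28.9 CPM in WT (−0.50 ± 0.90, adjusted p = 0.75). With WT AMuSC 2 and *mdx* AMuSC 1 left out together, an alternative added after the values were seen, *Acta1* was higher in *mdx* by 1.23 (adjusted p = 0.028). In that fit 2 genes were called higher and 0 lower, and its share of all genes called is not given. *Tpm3* and *Myom3* kept their direction without WT AMuSC 2 but did not pass, at −0.46 (adjusted p = 0.125) and −2.19 (adjusted p = 0.052). Several marker lists differed between the same libraries. Their summed levels were 903 to 1224 CPM in *mdx* AMuSCs and 1597 to 1676 CPM in WT AMuSCs for proliferation (5 of 5 markers lower in *mdx*), and 2037 to 2592 CPM in *mdx* AMuSCs and 1159 to 1243 CPM in WT AMuSCs for MuSC markers (6 of 6 higher). Macrophage and leukocyte markers were at 119 to 3555 CPM in *mdx* AMuSCs and 7.45 to 22.8 CPM in WT AMuSCs (3 of 6 higher), and smooth muscle and pericyte markers at 1058 to 1335 CPM in *mdx* AMuSCs and 380 to 459 CPM in WT AMuSCs (4 of 6 tested higher). Of the other lists, 4 of 6 fibro-adipogenic, 3 of 4 erythroid and 2 of 4 endothelial markers tested were higher in *mdx*. The part of these cells in the result was not tested.

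In culture no member passed between genotypes. In myoblasts, 38 genes were tested and 0 were called, against 0.244% of 17226 genes called higher and 0.116% called lower (DESeq2 also called 0). At an unadjusted p under 0.05 there were 0 members, against 2488 of all 17226 genes. The median log2 fold change was −0.83 (all genes 0.02). *Acta1* was at 48.7, 224 and 55.6 CPM in *mdx* myoblasts and 114, 802 and 117 CPM in WT myoblasts (−1.63 ± 1.06, adjusted p = 0.54), and the spread within each genotype, set by the second library, was wider than the difference. *Ttn* (−0.83 ± 0.55, adjusted p = 0.54) and *Des* (−0.02 ± 0.33, adjusted p = 0.99) did not pass either. *Mybpc2* had 2, 28 and 0 counts in *mdx* myoblasts and none in WT myoblasts, so its level in *mdx* rested on the second library.

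In myotubes, 42 genes were tested and 0 were called, against 0.373% of 16084 genes called higher and 0.218% called lower. At an unadjusted p under 0.05, 3 genes were higher and 9 lower in *mdx*, against 1204 higher and 976 lower of all 16084 genes. DESeq2 called 5 (2 higher, 3 lower), and the share of all genes that it called is not given. The median log2 fold change was −0.13 (all genes 0.006). *Acta1* (−0.28 ± 0.14, adjusted p = 0.43), *Actc1* (−0.36 ± 0.15, adjusted p = 0.35), *Ttn* (−0.31 ± 0.14, adjusted p = 0.39) and *Des* (−0.35 ± 0.15, adjusted p = 0.39) were each lower by less than 0.4 with an SE near 0.15, whereas *Ckm* (−0.20 ± 0.27, adjusted p = 0.78) and *Myl4* (0.11 ± 0.16, adjusted p = 0.79) were nearer to 0. *Myl1* was at 3422, 6169 and 4865 CPM in *mdx* and 7985, 7554 and 8264 CPM in WT, groups that did not overlap, and did not pass. *Ankrd2*, a stretch-responsive ankyrin repeat protein, was at 87.9, 3.44 and 2.28 CPM in *mdx* and 5.70, 8.82 and 6.29 CPM in WT, so that 1 library set its *mdx* mean. That library, *mdx* myotube 1, also had *Myh2*, a fast adult myosin heavy chain, at 104 CPM, against 6.14 and 6.95 CPM in the other *mdx* myotubes, and *Acta2*, the smooth muscle actin, at 2462 CPM, against 1058 and 1004 CPM.

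The difference between the differentiation responses was tested over the 12 cultured libraries, and 0 of 42 genes passed, against 0.0269% of 18585 genes called higher and 0.0323% called lower, and DESeq2 called 0 as well. At an unadjusted p under 0.05, 1 gene was higher and 2 were lower, against 1493 higher and 788 lower of all 18585 genes. *Acta1* (1.43 ± 1.10, adjusted p = 0.64), *Actc1* (1.29 ± 1.01, adjusted p = 0.65), *Myl4* (1.61 ± 1.09, adjusted p = 0.59) and *Ttn* (0.58 ± 0.58, adjusted p = 0.74) had positive and *Ckm* (−1.72 ± 1.30, adjusted p = 0.64) and *Des* (−0.28 ± 0.39, adjusted p = 0.83) negative differences, all within about 1.5 SE of 0. The myoblast libraries, with 1 high library per genotype, were spread more widely than the myotube libraries for each of these genes, relative to their means.

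A list of 38 other sarcomere genes outside the 43, among them the myosin heavy chains and troponins, was read beside the members. In FiMuSCs, 4 of 35 tested were higher in *mdx* (*Tnnc2*, *Mypn*, *Pdlim7* and *Trim55*) and 2 lower (*Tnnt1* and *Fhl1*), against 5.82% and 3.85% of all genes. In AMuSCs 5 of 35 were higher and 1 lower, against 14.8% and 8.95%, and in myoblasts and myotubes 0 passed. After injury 13 of 35 rose and 6 fell in *mdx*, against 15.5% and 11.7% of all genes, and 20 of 36 rose and 4 fell in WT, against 31.6% and 33%. On differentiation 35 of 37 rose and 1 fell in *mdx*, against 25.8% and 26.5%, and 34 of 37 rose and 2 fell in WT, against 34.9% and 34.5%. For the difference between injury responses 2 of 36 were higher and 5 lower, against 8.14% and 6.98%, and the lower ones included the neonatal myosin *Myh8* and the fast troponins *Tnni2* and *Tnnt3*. Of 9 regulators of the muscle programme, *Myog*, *Mef2a* and *Mef2c* were higher and *Myf6* lower in *mdx* FiMuSCs, *Myod1* was lower in *mdx* AMuSCs, and *Myog* rose after injury and on differentiation in both genotypes.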

How the data were processed

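Poly(A) RNA of 24 libraries, 3 in each of 8 groups, had been made into stranded libraries with the NEBNext Ultra II Directional kit. The authors deposited, for each library, Salmon estimates per transcript, with expected counts, TPM and effective lengths. Salmon 0.13.1, GRCm38 and DESeq2 are named in the processing notes of the submitters, and the strand setting and filters are not given in the sources used here. The deposited TPM values are scaled by the authors per effective length and to a constant sum per library.

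Expected counts were summed per gene and rounded to whole numbers, giving 53392 genes, of which 53355 matched GENCODE M21 (GRCm38). Genes were filtered with filterByExpr, scaled by TMM and tested with the robust quasi-likelihood test of edgeR 4.0.16 (R 4.3.3, limma 3.58.1) over the 6 libraries of each comparison, or the 12 of a difference between responses. The p-values were adjusted by Benjamini-Hochberg over all genes tested, with a threshold of 0.05. CPM were scaled by TMM over all 24 libraries. Nothing in the labels ties libraries to separate mice, so p-values measure the spread between libraries. An exact permutation test of 3 against 3 cannot go below 0.1. Where a group had no counts, a fold was set against 3 counts over the group, and 95% intervals cover counting error only. Reads shared by close paralogs, such as the 2 actins or the tropomyosins, are split by Salmon's estimation, so their separate levels are less certain.

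The members and lists were chosen with earlier results of these data known. A fold change and test could be given, in each comparison, for up to 15 members per direction (10 for a difference of responses) with the largest change among those past the threshold whose libraries do not overlap, and for *Acta1*, *Actc1*, *Ckm*, *Ttn*, *Des* and *Myl4*. Not every value of these last genes is printed, and none of those left out passed the test. Each fit was repeated with DESeq2 1.42.0, its size factors, no filter, a transcript length offset, a replicate block, all 24 libraries, and each library left out. The fits were tested on simulated data.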

Additional observations from a re-analysis of the deposited data

Results flagged for a closer look

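The injury responses of *mdx* and WT MuSCs differed for 4 genes by a test of the difference itself, fitted over the 12 sorted libraries with edgeR and adjusted over 21086 genes. Among all genes tested, 8.14% were called higher and 6.98% lower, against 1 higher and 3 lower of the 43 members, counts near or under that background. The log2 fold change of AMuSCs over FiMuSCs was greater in *mdx* by 1.75 for *Actn3*, and was smaller in *mdx* for *Tpm2* (−1.24), *Tpm3* (−1.21) and *Myom3* (−4.25). *Myom3* had 0.24 to 0.37 CPM in *mdx* AMuSCs and 1.13 to 11.2 CPM in WT AMuSCs, with WT AMuSC 2 the highest library. Without that library *Tpm2* (−0.97, adjusted p = 0.095) and *Myom3* (−2.56, adjusted p = 0.12) did not pass. For *Actn3* the WT FiMuSC libraries spread from 190 to 406 CPM, and the *mdx* FiMuSC libraries from 105 to 117 CPM.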

How the results depend on the processing

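The calls on differentiation, counted in either direction, depended little on the processing: 39 to 41 of the genes passed in *mdx* and 40 to 42 in WT when 1 library was left out, against 41 with all libraries. The count of 29 after injury in WT was 20 to 34, and that of 22 in *mdx* was 14 to 26, the lowest without *mdx* FiMuSC 2. Between *mdx* and WT FiMuSCs the count of 13 was 1 to 14 with 1 library left out and 5 with all 24 libraries in 1 fit, against 18 with DESeq2. Between AMuSCs the count of 2 was 6 with DESeq2, 0 with no filter on low counts, 4 with all 24 libraries and 1 to 3 with 1 library left out. Between myotubes the count of 0 was 5 with DESeq2 and 0 to 1 with 1 library left out. For the difference between injury responses the count of 4 was 12 with DESeq2, 2 with no filter or with the length offset, and 2 to 8 with 1 library left out. The cause of these changes was not tested. The counts are given without the share of all genes called in the same fit. They show how the calls move between fits and not an excess over the background.

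Directions changed among values that had not passed the test. With WT AMuSC 2 and *mdx* AMuSC 1 left out together, a choice made after seeing the data, the *mdx* against WT AMuSC values were 1.23 for *Acta1*, 0.62 for *Actc1*, 0.13 for *Myl4* and 0.65 for *Ckm*, and the difference between injury responses was 0.22 for *Acta1* and 0.12 for *Des*. With both second myoblast libraries left out, *Des* was 0.13 between myoblasts. With all 24 libraries the injury difference of *Des* was 0.034. With 1 library left out, AMuSC values ranged from −1.03 to 0.82 for *Acta1*, −1.26 to 0.24 for *Actc1*, −0.11 to 0.42 for *Des*, −2.52 to 0.36 for *Ckm* and −2.67 to −0.058 for *Myl4*. Myoblast values ranged from −2.31 to 0.25 for *Myl4*, −0.26 to 0.24 for *Des* and −0.21 to 2.84 for *Ckm*, and the myotube value of *Ckm* from −0.44 to 0.063. The injury response of *Ckm* in WT ranged from −2.79 to 0.079, that of *Acta1* in *mdx* from −0.25 to 0.68, and the difference of injury responses from −0.44 to 0.087 for *Des* and −2.01 to −0.19 for *Acta1*. The difference of differentiation responses ranged from −0.15 to 2.49 for *Acta1*, −0.18 to 2.16 for *Actc1*, −0.082 to 2.48 for *Myl4* and −2.99 to 0.033 for *Ckm*. Of 1827 alternative values over the named genes, 1606 kept direction and side of the threshold, 180 no longer passed, 16 passed newly and 25 changed direction.

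Replicate numbers are shared between groups, but in no comparison did all 3 same-numbered pairs correlate above 0.1 in their deviations from the group means (the nearest were *mdx* myotubes with *mdx* myoblasts, at 0.395, 0.095 and 0.136, and WT myotubes with WT myoblasts, at 0.15, 0.058 and 0.16). With a replicate block the counts were 11 between FiMuSCs, 3 between AMuSCs, 0 between myoblasts and between myotubes, 16 in *mdx* and 23 in WT after injury, 41 in each genotype on differentiation, 3 for the difference of injury responses and 0 for that of differentiation responses. With 3 libraries per group, members under about 1 CPM, such as *Myl3*, *Myl2* and *Myom3* in sorted cells, rest on few reads.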

Other observations

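The 38 other sarcomere genes, read as a summed level, were at 46010 to 55410 CPM in *mdx* myotubes and 61480 to 65800 CPM in WT myotubes, against 1105 to 2055 CPM in *mdx* myoblasts and 1526 to 3850 CPM in WT myoblasts. In sorted cells they were at 793 to 1266 CPM in *mdx* AMuSCs and 984 to 1998 CPM in WT AMuSCs. In FiMuSCs they were at 620 to 753 CPM in *mdx* and 770 to 878 CPM in WT, with every *mdx* sum below every WT sum. The sum gives most weight to abundant genes such as *Fhl1*, at 144 to 168.5 CPM in *mdx* and 261 to 379 CPM in WT FiMuSCs. Gene by gene, the median log2 fold change between *mdx* and WT FiMuSCs was 0.76 for this list and 0.66 for the members.

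*Myh7*, the slow and ventricular myosin heavy chain, was at 242, 44.0 and 321 CPM in *mdx* myotubes and 16.1, 36.8 and 24.1 CPM in WT myotubes, and *Myh6*, the atrial one, at 57.1, 11.2 and 74.3 CPM in *mdx* myotubes and 0.20, 0.44 and 0.16 CPM in WT myotubes. Of the other cardiac markers listed, *Nppa* and *Myl7* were at 0 in every myotube library and *Tnni3* was at 0.19 to 0.87 CPM in *mdx* myotubes and 0.22 to 0.51 CPM in WT myotubes. The *mdx* libraries with the highest values, the first and the third, were also those with the highest *Myl2*. *Myog* was at 71.0, 260 and 181 CPM in *mdx* AMuSCs and 144, 200 and 149 CPM in WT AMuSCs. These genes were chosen after their values were seen, and no test is given.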
